A study of Mus musculus with 8 samples.

Results

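Expression of 10 glutathione and NRF2 antioxidant genes was compared between Tgfbr2 mutant and control palatal mesenchyme. The genes are Gclc, Gclm, Gss, Gsr, Hmox1, Nqo1, Txnrd1, Srxn1, Gpx8 and Gsta4. They were chosen by name, with earlier results of these data known. Each was read by its brightest probe set among those with exactly 1 gene symbol. All 10 were measured, out of 18193 genes in all. All 10 lay above the median of all probe sets (log2 intensity 6.93) on all 8 arrays, as did 11289 of the 18193 genes. The samples were primary cells from the palates of C57BL/6J mouse embryos at embryonic day 13.5, put into culture and collected after 2 passages. The mutant group (n = 4) had the genotype Tgfbr2 fl/fl; Wnt1-Cre, in which Cre driven by Wnt1 regulatory sequence deletes the floxed part of a TGF-beta receptor gene in neural crest cells and their descendants. The genotype label of the control group (n = 4) is Tgfbr2 fl/fl with no Cre named, while the sample titles call these mice wildtype. By the genotype labels, both groups carried the floxed alleles. Cells of other origin in the culture would keep the receptor gene. The labels do not say whether each array came from its own embryo, so each p-value speaks only of the spread among the arrays at hand, part of which may be technical.

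Glutathione is a small thiol made from glutamate, cysteine and glycine, and cells use it to reduce peroxides and to tag reactive lipids and drugs for export. NRF2, encoded by Nfe2l2, is the transcription factor that sets the level of much of this system. Its partner KEAP1 holds it in the cytoplasm and feeds it to the CUL3 ubiquitin ligase until oxidants or electrophiles modify KEAP1, whereupon NRF2 enters the nucleus, pairs with small MAF proteins and binds antioxidant response elements in its target genes. BACH1 occupies the same elements as a repressor. TGF-beta is known in other cell types to lower glutathione synthesis and NRF2 activity.

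The core of the antioxidant response element is TGACNNNGC, and RefSeq promoter windows (250 bases before to 50 after a gene's start, build GRCm38.p6) were searched for it on both strands. Windows were held for 6 of the 10 genes, 8 windows in all, and 3 genes (Gclm, Srxn1 and Txnrd1) had a match, which is 50% of the 6 genes against 14.0% of all 27025 genes with a window. By windows it was 3 of 8, against 12.4% of all 32851. The stretches around the matches are shown because these 3 genes carry the element's letters beside their start, and each match lies on the strand opposite the gene. Capitals mark the 9 matched bases, read 5′ to 3′ on the plus strand. The Gclm stretch is chr3:122245307-122245486, where the match starts 134 bases before the start site of the window. This stretch ends short of that site, because it was cut at an earlier start of the gene inside the window. The Srxn1 stretch is chr2:152105542-152105570, where it starts at base 29 of the transcript. The Txnrd1 stretch is chr10:82858956-82859205, where it starts 92 bases before the second of the 3 start sites held.
Gclm: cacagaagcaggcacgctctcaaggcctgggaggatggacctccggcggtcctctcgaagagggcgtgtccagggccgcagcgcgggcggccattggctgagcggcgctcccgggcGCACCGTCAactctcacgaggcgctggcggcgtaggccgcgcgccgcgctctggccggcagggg
Srxn1: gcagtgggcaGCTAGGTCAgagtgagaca
Txnrd1: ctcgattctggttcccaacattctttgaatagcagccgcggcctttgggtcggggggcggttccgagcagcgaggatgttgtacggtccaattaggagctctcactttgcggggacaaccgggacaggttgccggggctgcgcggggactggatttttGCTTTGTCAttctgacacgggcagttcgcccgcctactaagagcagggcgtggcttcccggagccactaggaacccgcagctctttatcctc
The windows of Gss, Nqo1 and Gpx8 and the other 2 of Txnrd1 did not hold these letters, which says nothing about elements further away.

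Markers of mesenchyme and of leukocytes were both bright in these cultures. Of 10 markers of palatal mesenchyme, 9 lay above the median probe set on every array, and their mean was 12.09 ± 0.24 in mutant and 12.09 ± 0.27 in control arrays (SD, n = 4). Control 4 was the lowest array, at 11.68 against 12.19 to 12.25 in the other controls. The marker below the median was Osr2, a transcription factor of the palatal shelf, which was dimmer on all 8. All 21 macrophage and leukocyte markers lay above it on all 8 arrays, and their mean was 13.41, 13.42, 13.48 and 11.44 in mutants 1 to 4 and 12.58, 12.78, 11.42 and 11.37 in controls 1 to 4. In such bulk samples, more cells of a type and more RNA per cell cannot be told apart. The bioB hybridisation spike-in controls divided the arrays as well, dim on replicates 1 and 2 in each genotype (6.34 to 6.52) and brighter on replicates 3 and 4 (8.24 to 8.79), so differences are also given within each of these sets, named lower bioB and higher bioB. The brightest probe set of the targeted gene Tgfbr2 read 11.73 to 12.76 in mutant and 11.66 to 12.40 in control arrays. Where these probes lie with respect to the floxed segment is unknown here, so this level is no check of the genotypes.

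None of the 10 antioxidant genes passed the test between genotypes (limma, Benjamini-Hochberg adjusted p under 0.05), against 0.0879% of all genes. The genes did not move as a block: 4 differences were above 0 and 6 below, with a median of -0.17 on the log2 scale against -0.01 over all genes. At an unadjusted p under 0.05 in limma, 3 of the 10 differed (15.5% of all genes did): the glutathione transferase gene Gsta4 was higher in mutant cells (5.84% of all genes were higher at that level), while the endoplasmic reticulum peroxidase gene Gpx8 and the sulfiredoxin gene Srxn1 were lower (9.69% of all genes were lower). Mutant and control arrays were fully separated for 2 of the 10 genes, Gsta4 above (2.89% of all genes) and Srxn1 below (5.18%), against 8.07% of all genes in either direction. The rate-limiting and classical NRF2 target genes, Gclc, Gclm, Hmox1 and Nqo1, had differences of 0.0033, 0.08, -0.18 and -0.17, each with a 95% interval that spans 0.

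**Figure D1:**
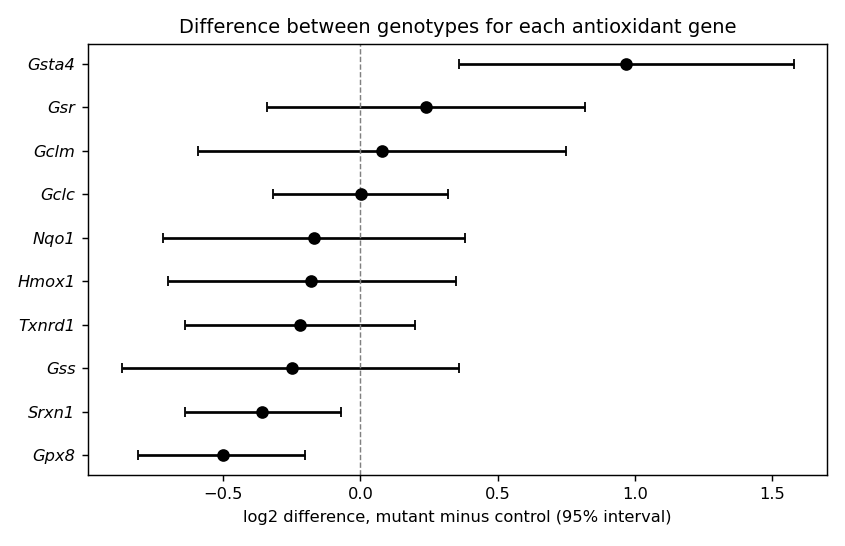
Difference in log2 intensity, mutant minus control, for each antioxidant gene (points), with the 95% interval from limma's moderated error (bars), 4 arrays per genotype. The intervals of Gsta4 (0.36 to 1.58), Gpx8 (-0.81 to -0.20) and Srxn1 (-0.64 to -0.07) lie to one side of 0, and the other 7 span it.

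Glutathione synthesis begins with glutamate-cysteine ligase, whose catalytic subunit is encoded by Gclc. Its log2 intensity was 9.04, 8.96, 8.87 and 9.02 in mutants 1 to 4 and 8.90, 8.72, 8.87 and 9.39 in controls 1 to 4. The mutants lay close together inside the control range, and control 4 was the highest of the 8. The means were 8.97 ± 0.08 and 8.97 ± 0.29 (SD, n = 4), and the difference was 0.0033 (SE 0.14, 95% interval -0.32 to 0.32, adjusted p = 0.993 in limma). A change of the Gclc signal by more than 1.25-fold in either direction therefore lay outside the interval. The difference was 0.19 within the lower bioB arrays and -0.19 within the higher. A further Gclc probe set, with a mean of 8.41, spread more widely, from 7.49 in control 3 to 8.82 in mutant 1, and differed by 0.02 between genotypes (SE 0.32).

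Gclm encodes the modifier subunit of the same ligase, which raises its affinity for glutamate and relieves feedback by glutathione, and its promoter stretch with the response element letters is printed above. Mutants read 11.96, 11.29, 11.12 and 10.83, and controls 11.87, 11.22, 10.70 and 11.08. The first replicate was the highest in both genotypes, and the groups overlapped along nearly their whole range. The difference was 0.08 (SE 0.29, 95% interval -0.59 to 0.75, adjusted p = 0.919 in limma), and 0.08 within both bioB sets. It was 0.30 without control 1 and -0.14 without mutant 1. The second Gclm probe set had the same 2 arrays on top, at 9.53 in mutant 1 and 9.46 in control 1, and differed by -0.05 (SE 0.40). Both sets of Gclm probes thus showed a spread within each genotype that exceeded the difference between them.

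Gss encodes glutathione synthetase, which adds glycine in the last step. Mutants read 8.75, 8.96, 9.38 and 9.46, and controls 9.02, 8.93, 9.57 and 10.05. Replicates 3 and 4 were above replicates 1 and 2 in both genotypes, the same division as in the bioB controls. The difference was -0.25 (SE 0.27, 95% interval -0.87 to 0.36, adjusted p = 0.687 in limma), and -0.12 within the lower and -0.39 within the higher bioB arrays. With the bioB set as a block it was again -0.25 with a smaller error (SE 0.12, adjusted p = 0.27 in limma). Without control 4 the Gss difference was -0.04, and without control 2 it was -0.41. A further Gss probe set differed by -0.32 (SE 0.17).

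Gsr encodes glutathione reductase, which uses NADPH to return oxidised glutathione to its reduced form. Mutants read 10.33, 9.86, 9.69 and 9.06, and controls 9.80, 9.53, 9.18 and 9.45. Mutants 1 and 2 lay above every control and mutant 4 below every control. The difference was 0.24 (SE 0.25, 95% interval -0.34 to 0.82, adjusted p = 0.682 in limma), 0.43 within the lower and 0.06 within the higher bioB arrays. The other Gsr probe set read 9.76 ± 0.40 in mutant and 9.41 ± 0.32 in control arrays (SD, n = 4) and differed by 0.35 (SE 0.22). Without mutant 4 the Gsr difference was 0.47 (adjusted p = 0.183 in limma), and without mutant 1 it was 0.04.

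Hmox1 and Nqo1 are the enzymes most often used to report NRF2 activity. Hmox1, heme oxygenase, degrades heme and is also induced when BACH1 leaves its promoter, and it is abundant in macrophages that recycle red cells. Its log2 intensity was 11.50, 11.08, 11.32 and 10.62 in mutants and 11.64, 11.39, 10.79 and 11.40 in controls. The 2 lowest arrays, mutant 4 and control 3, were among the 3 with the lowest macrophage marker means in the series, beside control 4, whose Hmox1 level was among the higher ones. The genotypes overlapped, with a difference of -0.18 (SE 0.23, 95% interval -0.70 to 0.35, adjusted p = 0.753 in limma). It was -0.23 and -0.12 within the lower and higher bioB arrays, and -0.47 (adjusted p = 0.255 in limma) with the macrophage marker mean as a covariate. Without mutant 4 the Hmox1 difference was -0.01, and without control 3 it was -0.35.

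Nqo1 encodes a quinone reductase that spends NADPH or NADH to keep quinones from cycling. Its 4 mutant arrays were nearly identical, at 9.88, 9.92, 9.85 and 9.91. Controls 1 to 3 lay level with or just below them, at 9.78, 9.85 and 9.72, and control 4 stood apart at 10.88. The difference of -0.17 (SE 0.24, 95% interval -0.72 to 0.38, adjusted p = 0.774 in limma) therefore rested on 1 control array. Without control 4 the Nqo1 difference was 0.10 (SE 0.07, adjusted p = 0.515 in limma), and it was 0.08 within the lower bioB arrays and -0.42 within the higher, which include that array.

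Txnrd1 encodes cytosolic thioredoxin reductase, a selenoprotein that works beside glutathione to keep thiols reduced. Mutants read 11.28, 11.25, 11.03 and 11.69, and controls 11.56, 11.21, 11.44 and 11.93. The groups overlapped, and the fourth replicate was the highest in each genotype. The difference was -0.22 (SE 0.18, 95% interval -0.64 to 0.20, adjusted p = 0.595 in limma), -0.12 within the lower and -0.32 within the higher bioB arrays. It was 0.01 with the macrophage marker mean as a covariate, -0.09 without control 4 and -0.35 without mutant 4. A second Txnrd1 probe set, with a mean of 7.37, differed by -0.14 (SE 0.24). The third was below the median of all probe sets, at a mean of 5.10, and differed by 0.03.

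Srxn1 encodes sulfiredoxin, which repairs peroxiredoxins whose active cysteine has been over-oxidised. Mutants read 9.36, 9.23, 9.15 and 9.36, and controls 9.53, 9.41, 9.62 and 9.96. Every control lay above every mutant, by a margin that was small between mutants 1 and 4 and control 2. The difference was -0.36 (SE 0.12, 0.780-fold, 95% interval 0.641 to 0.949), with an unadjusted p of 0.0191 and an adjusted p of 0.245 in limma. It was -0.17 within the lower and -0.54 within the higher bioB arrays, and -0.25 for Srxn1 without control 4. The difference was seen with only 1 of the 4 Srxn1 probe sets. The design name of that probe set marks probes shared by several transcripts, and the other 3 differed by -0.07, 0.12 and -0.10 (SE 0.11, 0.08 and 0.12). With all 4 averaged, Srxn1 differed by -0.10 (SE 0.09, adjusted p = 0.627 in limma).

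Gpx8 encodes a peroxidase of the glutathione peroxidase family that is anchored in the membrane of the endoplasmic reticulum, where it uses peroxide left by oxidative protein folding. Mutants read 12.20, 12.27, 12.15 and 12.72, and controls 12.79, 12.70, 12.91 and 12.94. Mutants 1 to 3 lay below every control, and mutant 4 lay within the control range. The means were 12.34 ± 0.26 and 12.84 ± 0.11 (SD, n = 4). The difference was -0.50 (SE 0.13, 0.707-fold, 95% interval 0.572 to 0.873), with an unadjusted p of 0.00508 and an adjusted p of 0.189 in limma, the smallest p among the 10 genes and rank 484 of 18193. It was -0.51 within the lower and -0.49 within the higher bioB arrays.

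Gsta4 encodes the glutathione transferase that conjugates 4-hydroxynonenal, a reactive product of lipid peroxidation. Mutants read 10.12, 9.57, 10.32 and 9.32, and controls 9.09, 9.25, 8.35 and 8.75. Every mutant lay above every control, with mutant 4 at 9.32 just over control 2 at 9.25. The means were 9.83 ± 0.47 and 8.86 ± 0.40 (SD, n = 4). The difference was 0.97 (SE 0.27, 1.96-fold, 95% interval 1.29 to 3.00), the greatest in size among the 10, with an unadjusted p of 0.00601 and an adjusted p of 0.19 in limma. It was 0.68 within the lower and 1.27 within the higher bioB arrays.

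Neither Gpx8 nor Gsta4 passed with 4 equally weighted arrays per genotype, but both passed in some other fits. Without mutant 4 Gpx8 differed by -0.63 (adjusted p = 0.0169 in limma) and Gsta4 by 1.15 (adjusted p = 0.0398 in limma), and both passed, in a fit that called 1316 genes in place of 16. Both also passed with array quality weights (-0.53 and 0.85, adjusted p = 0.0222 and 0.0471 in limma), where 1470 genes were called, and Gpx8 passed within the lower bioB arrays, where 2085 were. Mutants 1 to 3, with macrophage marker means of 13.41 to 13.48, were the 3 lowest arrays in Gpx8 and the 3 highest in Gsta4. With that mean as a covariate, Gpx8 differed by -0.31 (SE 0.08, adjusted p = 0.171 in limma) and Gsta4 by 0.61 (SE 0.19, adjusted p = 0.205 in limma). The defining leukocyte genes Ptprc and Csf1r differed by 1.23 and 0.77 and did not pass either (adjusted p = 0.283 and 0.528 in limma), and Cd68 and Tyrobp differed by 0.44 and 0.74. The macrophage marker mean itself averaged 12.94 in mutant and 12.03 in control arrays, so the covariate fit cannot tell genotype and leukocyte RNA apart. The part of leukocyte RNA in the Gsta4 and Gpx8 differences was not tested.

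**Figure D2:**
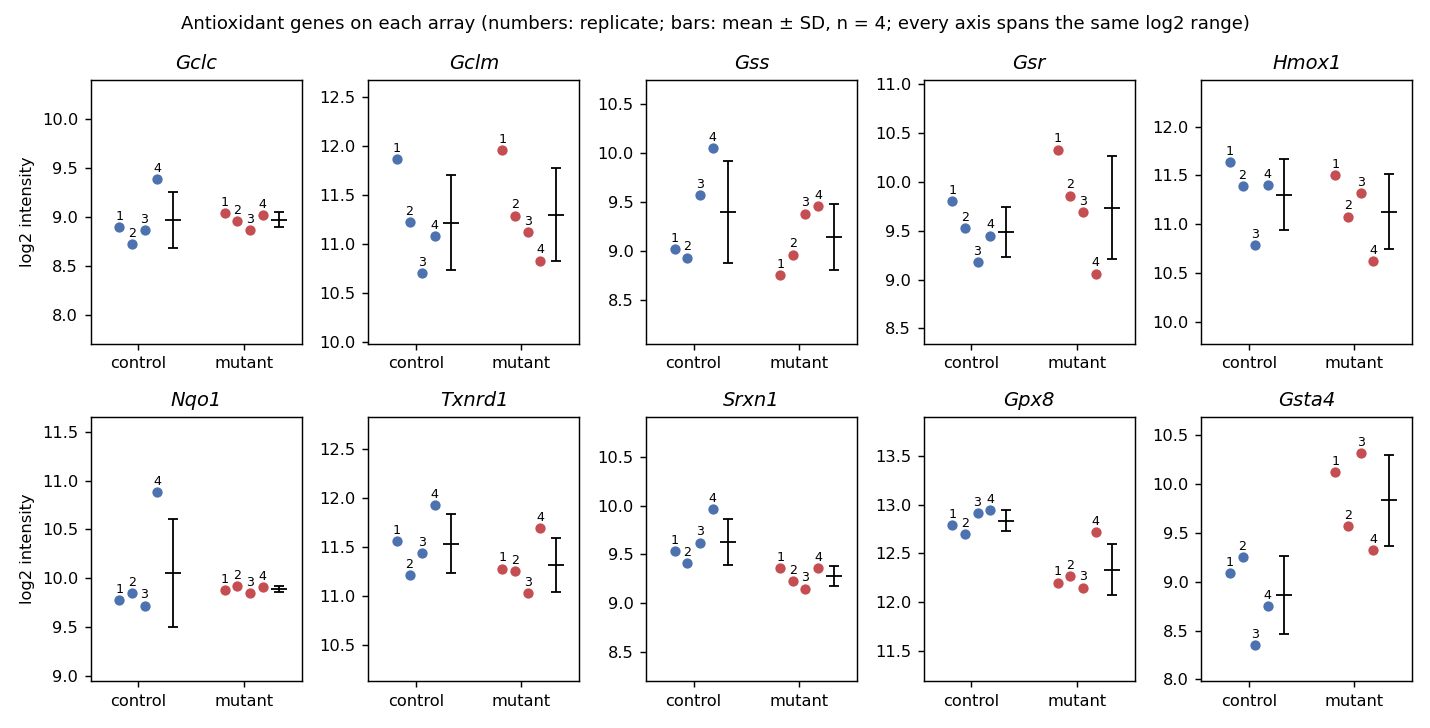
Log2 intensity of each antioxidant gene on each array, controls in blue and mutants in red, with the replicate number at each point and the mean ± SD (n = 4) beside each group; each panel spans an equal log2 range around its own centre. Every mutant lies above every control in Gsta4 and below in Srxn1, and control 4 at 10.88 stands apart in Nqo1.

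Across the 8 arrays the 10 genes followed several patterns. Control 4 was the highest of all arrays for 6 of them, Gclc, Gss, Nqo1, Txnrd1, Srxn1 and Gpx8, whereas it was the highest for 17.6% of all genes and for 10.1% of the 109 genes of the pathway lists described below. That array also had low values of the mesenchyme markers Pdgfra (10.10, against 12.23 to 12.98 on the other 7) and Lum (12.76, against 13.81 to 14.39), and the highest values of the neuronal markers Stmn2 (12.21, against 8.51 to 10.94) and Tubb3 (10.03, against 7.79 to 9.47). These 4 markers were picked out after their values were seen, and other markers of the same lists did not all follow them. On control 4 the neuronal and glial markers Fabp7 (9.28) and Sox10 (7.93) were at or near their lowest. The mesenchyme marker Vim (14.47) lay within the range of the other arrays (14.15 to 14.53). The part of the 4 picked markers in the antioxidant genes' levels on control 4 was not tested. Without control 4 the median difference over the 10 genes was 0.0002 in place of -0.17. Gclm, Gsr and Hmox1 varied together in another way: mutant 4 and control 3 were the lowest 2 arrays for all 3 genes, with mutant 1 or control 1 on top. As a measure of likeness, the root mean square distance between mean-centred log2 profiles was 0.19 between Gclm and Gsr, and 0.16 between Txnrd1 and Srxn1, the closest pair of all. It was 0.46 between Gclc and Gclm, the subunits of 1 enzyme, and 0.91 between Gpx8 and Gsta4, the pair furthest apart.

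**Figure D3:**
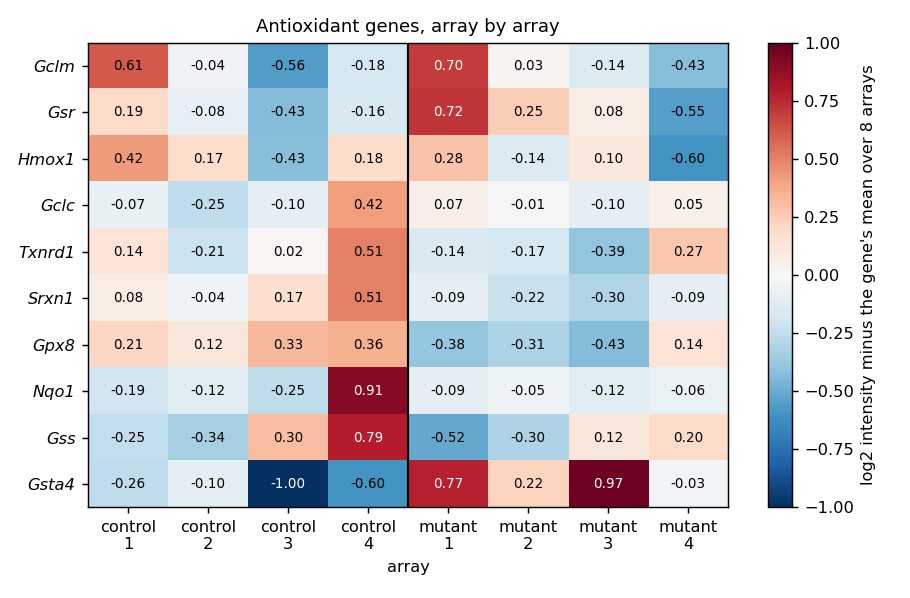
Log2 intensity of each antioxidant gene on each array minus that gene's mean over the 8 arrays, written in each cell and coloured from blue (lower) to red (higher), with a line between control and mutant arrays. Control 4 is the reddest cell for Gclc, Txnrd1, Srxn1, Gpx8, Nqo1 and Gss, while Gclm, Gsr and Hmox1 share their lowest cells in control 3 and mutant 4.

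The genes with the nearest profiles were sought for the 3 members that varied most, among 12186 other genes with a mean above the median probe set. For Gsta4 (SD 0.66 over 8 arrays) these were Cd180, a Toll-like receptor homologue of B cells and macrophages, Samhd1, a nucleotide triphosphatase that is abundant in myeloid cells, and the ion channel gene Tmem38b, at distances of 0.15, 0.17 and 0.18. They differed between genotypes by 0.80, 1.02 and 0.96, and none passed (adjusted p = 0.261, 0.187 and 0.187 in limma). For Gclm (SD 0.45) the nearest were Nxt2 (0.19), Gsr itself (0.19) and Nxpe4 (0.20). For Gss (SD 0.43) they were Iffo2, the ribosome assembly gene Rrp9 and the spindle gene Psrc1, each at 0.09.

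The surrounding pathway was described with 8 lists, of which 109 of 120 genes were measured. None of the 109 passed over all genes. At an unadjusted p under 0.05 in limma 20 of the 109 (18.3%, against 15.5% of all genes) differed, 8 higher and 12 lower in mutant cells, where 5.84% of all genes were higher and 9.69% lower. Mutant and control arrays were fully separated for 12 of the 109 (8.07% of all genes), 6 higher and 6 lower (2.89% and 5.18% of all genes). The counts of each list below are to be read against these shares. The median difference was -0.03.

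Among the 11 regulators of the pathway (median -0.06), 2 were higher and 0 lower at an unadjusted p under 0.05 in limma, and 0 passed over all genes. This is 18.2% of the list, near the 15.5% of all genes. The repressor gene Bach1 read 11.61, 11.59, 11.55 and 11.02 in mutants and 10.95, 10.98, 10.66 and 10.65 in controls. Every mutant lay above every control. Its difference was 0.63 (SE 0.15, adjusted p = 0.187 in limma), 0.77 without mutant 4, where it passed (adjusted p = 0.0171 in limma), and 0.39 when the macrophage mean entered as a covariate. With its probe sets averaged, Bach1 differed by 0.66 with a wider error (SE 0.36, adjusted p = 0.433 in limma). Rbx1, the RING subunit of the ubiquitin ligase that takes NRF2, differed by 0.19, Cul3, its scaffold, by -0.18 and Keap1 by -0.22 (adjusted p = 0.246, 0.42 and 0.504 in limma). Leaving out 1 array moved Keap1 to -0.37 (without control 4) or -0.12 (without control 3), and Cul3 to -0.11 (without mutant 3). Averaging of probe sets gave -0.04 for Cul3 and -0.11 for Keap1. Rbx1 was dimmer than the median probe set on all 8 arrays. The NRF2 gene Nfe2l2 itself read 11.23 to 11.69 in mutants and 11.43 to 11.75 in controls, a difference of -0.16 (SE 0.12).

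Genes that feed and drain the glutathione pool included 19 measured members (median -0.08), of which 2 were higher and 3 lower at an unadjusted p under 0.05 in limma (26.3% together, against 15.5% of all genes) and 0 passed. Cysteine, the limiting amino acid, enters as cystine through the exchanger Slc7a11, which read 7.19, 6.78, 6.51 and 7.03 in mutants and 7.91, 7.31, 7.49 and 7.68 in controls. Cth, which makes cysteine from cystathionine, read 8.92, 9.57, 9.42 and 9.84 against 10.39, 10.29, 10.11 and 10.03. In both genes every mutant lay below every control, and the differences were -0.72 (SE 0.18) and -0.77 (SE 0.19), each with adjusted p = 0.187 in limma. Slc7a11 was dim, with mutants 2 and 3 below the median probe set. With its probe sets averaged, Slc7a11 differed by -0.54 (SE 0.28, adjusted p = 0.407 in limma). Abcc4, an exporter of conjugates, differed by 0.71 (SE 0.15, adjusted p = 0.167 in limma) and Hagh, a glyoxalase that releases glutathione, by 0.39 (SE 0.10, adjusted p = 0.187 in limma), both with no overlap. Cth, Abcc4 and Hagh passed without mutant 4 (adjusted p = 0.028, 0.00807 and 0.043 in limma), where 1316 genes were called.

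Of the 7 other glutathione peroxidase genes (median 0.07), 1 differed at an unadjusted p under 0.05 and 0 passed. This was Gpx7, the nearest relative of Gpx8 and likewise a resident of the endoplasmic reticulum, at 10.72, 11.14, 10.82 and 11.50 in mutants and 12.06, 11.96, 12.20 and 11.25 in controls. It differed by -0.82 (SE 0.24, 0.565-fold, adjusted p = 0.199 in limma), and the groups overlapped because control 4 lay below mutant 4. Control 4 was the highest array in Gpx8 and the lowest control in Gpx7. Gpx7 passed without mutant 4 (-0.98, adjusted p = 0.0459 in limma). The cytosolic peroxidase gene Gpx1 differed by 0.19 and Gpx4, which protects membranes from lipid peroxides, by 0.04 (adjusted p = 0.34 and 0.866 in limma). Gpx2 and Gpx6 differed by 0.19 and 0.20, and were dim, above the median probe set on 2 and 0 of the 8 arrays.

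The 21 other glutathione transferase genes had a median of -0.02, 2 being higher and 1 lower at an unadjusted p under 0.05 in limma, and 0 passed. The microsomal transferases Mgst3 and Mgst1 differed by 0.37 (SE 0.09, no overlap) and 0.52 (SE 0.18), with adjusted p = 0.187 and 0.244 in limma, and Mgst3 passed without mutant 4 (adjusted p = 0.0367 in limma). Gstcd differed by -0.26 and Gstp1 by -0.21 (adjusted p = 0.236 and 0.35 in limma). Gsta3, of the same class as Gsta4, read 7.59, 6.47, 6.36 and 6.73 in mutants and 8.16, 6.34, 6.26 and 6.16 in controls, a difference of 0.06 (SE 0.47). It was dim, above the median probe set on only 2 of the 8 arrays.

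Thioredoxins, peroxiredoxins and methionine sulfoxide reductases, the partners of Txnrd1 and Srxn1, had 15 measured members and a median of -0.08, with 1 higher and 2 lower at an unadjusted p under 0.05 in limma and 0 passing. The selenoprotein reductases Txnrd3 and Txnrd2 differed by -0.25 and 0.23, and the methionine sulfoxide reductase gene Msrb3 by -0.42 (adjusted p = 0.249, 0.282 and 0.274 in limma). With probe sets averaged, Txnrd3 differed by only -0.09 (SE 0.06), Txnrd2 by 0.21 and Msrb3 by -0.55. Sesn1, a p53-induced sestrin, differed by 1.22 with a wide error (SE 0.63), from 10.16 to 12.38 in mutants and 9.50 to 11.61 in controls. Its highest arrays were mutants 1 to 3, those with the highest macrophage marker means, and with that mean as a covariate Sesn1 differed by 0.17 (SE 0.14). Sesn1 passed within the lower bioB arrays (0.95, adjusted p = 0.017 in limma) and differed by 1.49 (SE 0.72) within the higher, where it did not pass. Of the 5 dismutase and catalase genes (median -0.26), 0 passed in limma and 1, the copper chaperone gene Ccs, differed at an unadjusted p under 0.05 (-0.29, SE 0.10). The secreted dismutase gene Sod3 differed by -0.74 (SE 0.67), with mutants spread from 7.85 to 11.06. Sod3 was -1.43 without mutant 4, -0.36 without mutant 1 and 0.01 with the macrophage covariate. It passed within the lower bioB arrays (-1.48, adjusted p = 0.0358 in limma), where 2085 genes were called. Within the higher bioB arrays Sod3 differed by -0.01 (SE 1.12). Sod2 differed by -0.26, by -0.47 without mutant 4 and by -0.08 without mutant 3. Cat differed by 0.17, by 0.47 without mutant 4 and by -0.02 without mutant 1.

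NADPH drives both Gsr and Txnrd1. Of its 11 measured suppliers (median -0.04), 3 were lower and 0 higher at an unadjusted p under 0.05 in limma, all 3 without overlap, and 0 passed. These 3 are 27.3% of the list, where 9.69% of all genes were lower at that level and 5.18% lower without overlap. This share was not tested, and the list was chosen with earlier results of these data known. Malic enzyme, Me1, read 10.76, 10.86, 10.56 and 11.12 in mutants and 11.53, 11.39, 11.29 and 11.54 in controls. It had the smallest p of the pathway genes, with a difference of -0.61 (SE 0.13, 0.653-fold, adjusted p = 0.161 in limma). The folate enzyme genes Mthfd2 and Mthfd1 differed by -0.63 and -0.32 (adjusted p = 0.189 and 0.232 in limma), and Me2 by -0.23. Me1 and Mthfd2 passed without mutant 4 (adjusted p = 0.0186 and 0.0192 in limma). The 28 other NRF2 target genes, which repeat some genes of the lists above, had a median of 0.01, 2 being higher and 3 lower at an unadjusted p under 0.05 in limma, and 0 passed. They included Me1, Slc7a11 and Mgst1 as above, and the aldo-keto reductase gene Akr1b10 at 0.34 (SE 0.10, adjusted p = 0.202 in limma).

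**Figure D4:**
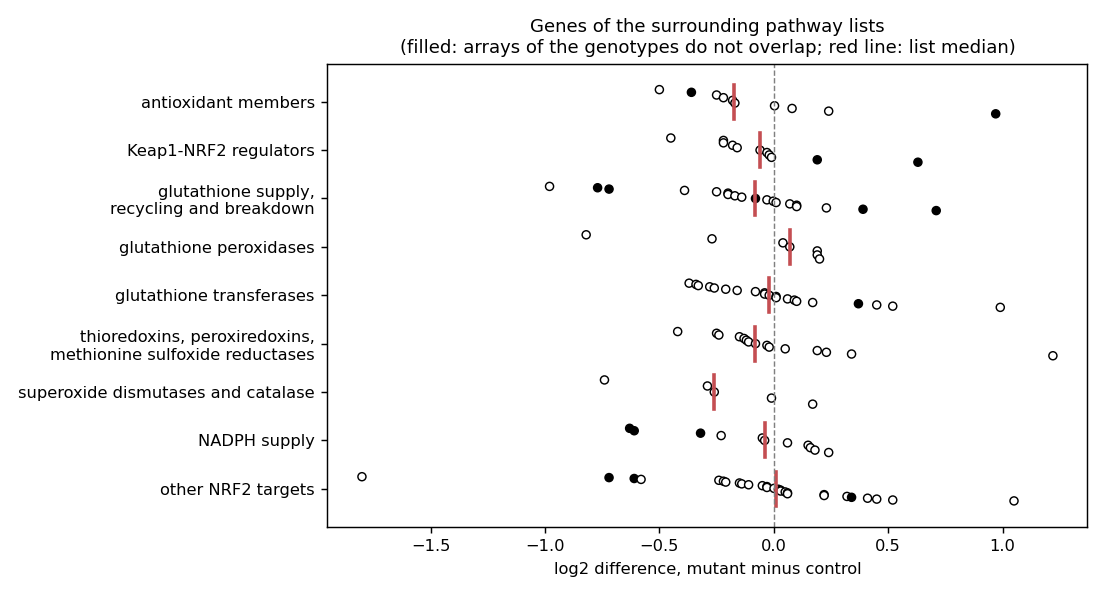
Log2 difference, mutant minus control, for each antioxidant gene and each measured gene of the 8 pathway lists (points), filled where the arrays of the genotypes do not overlap, with the list median as a red line. Medians run from -0.26 (dismutases and catalase) to 0.07 (other glutathione peroxidases), and genes lie on both sides of 0 in each list.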

How the data were processed

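Total RNA was hybridised to 8 Affymetrix mouse expression arrays. The log2 intensities deposited by the authors, with 1 value for each probe set on each array, came from RMA per the submitters' processing notes. RMA corrects background, quantile-normalises the arrays and summarises probes; no version is given in the sources used here. They ran from 3.21 to 15.18 and were used as deposited. The number of arrays limits the precision.

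Of 45101 probe sets, 34945 had 1 gene symbol, 932 several and 9160 none listed. Symbols were updated by Entrez ID through a RefSeq table (GRCm38.p6, 34741 matched), and the brightest mean probe set stood for each of 18193 genes. Genotypes were compared with limma 3.58.1 in R 4.3.3 (lmFit, eBayes, two-sided, no covariate, Benjamini-Hochberg over all genes, threshold 0.05). The procedure was also run on simulated data with noise drawn independently for each gene and array. Deviations of the real arrays correlated with each other, so that run does not show the error rates for these data. SE values and 95% intervals are moderated.

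The members and lists were chosen with earlier results of these data known. Named genes were all members, up to 4 genes per list with the smallest p, and for the 3 members of greatest SD the 3 nearest profiles, with 4 macrophage genes and Tgfbr2. Nfe2l2, Gpx4 and Gsta3 were added after their values were seen. Lists were described, not tested. Marker lists of other cell types were epithelial, endothelial, skeletal muscle, neuronal and glial, and erythroid, with 3 of 10, 1 of 8, 3 of 8, 4 of 6 and 0 of 4 measured genes brighter than the median probe set throughout and median differences of 0.07, 0.04, -0.02, 0.09 and 0.04. Alternatives covered normalisation, probe set choice, dim genes, variance model, array weights, blocks, a macrophage covariate and leaving out each array.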

Additional observations from a re-analysis of the deposited data

Results flagged for a closer look

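In groups of 4 arrays, 1 array lay far from the other 3, by Dixon's gap over range at the 95% level, in 5 of the 78 gene and genotype groups examined, 1 of them among the 20 groups of the antioxidant genes. Chance gives about 1 in 20. Nqo1 read 10.88 in control 4, against 9.72 to 9.85 in the other controls. Bach1 read 11.02 in mutant 4, against 11.55 to 11.61 in the other mutants. Sesn1 read 10.16 in mutant 4, against 12.15 to 12.38. Gstp1 read 13.92 in control 3, against 13.71 to 13.72 in the other controls. Txnrd3 read 7.97 in mutant 2, against 7.73 to 7.76 in the other mutants.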

How the results depend on the processing

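All listed alternatives were run. With dim genes left out, Rbx1 and Gpx6 had no value. Of 200 differences of the 10 antioxidant genes under 20 alternatives, 179 kept their direction and their side of the threshold, 5 newly passed (given above for Gpx8 and Gsta4) and 16 changed sign, none of these called. Of 578 differences of the 29 other named genes, 547 kept both, 27 newly passed and 4 changed sign. The cause of these changes was not tested.

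The count of antioxidant genes past the threshold was 2 with array weights, 1 within the lower bioB arrays and 0 to 2 with 1 array left out. Their median ran from -0.22 to 0.0002 with 1 array left out. The count of all genes was 1470 with array weights, 2 with the poly-A control set as a block, 2085 and 0 within the lower and higher bioB arrays, 34 with the macrophage covariate, 41 at adjusted p under 0.1 and 1 of all probe sets, and 0 (without mutant 1, mutant 2 or control 1) to 1316 (without mutant 4) with 1 array left out. It was 31 without control 4, 2 without control 2 and 1 without mutant 3 or control 3. Where 0 passed in limma, the count at an unadjusted p under 0.05 was 947 within the higher bioB arrays, 1738 without mutant 1, 2355 without mutant 2 and 2173 without control 1, against 2826 with all arrays.

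Sign changes were as follows. With the macrophage covariate, Gclm differed by -0.24, Gss by 0.08, Gsr by -0.10, Txnrd1 by 0.01, Sod3 by 0.01 and Cat by -0.21. Within the lower bioB arrays Nqo1 differed by 0.08, and within the higher Gclc by -0.19 and Cat by -0.11. Nqo1 differed by 0.0049 with array weights and by 0.10 without control 4, and Gclc by -0.03 with array medians centred. Gclm differed by -0.14 without mutant 1 and -0.09 without control 3, and Cat by -0.02 without mutant 1. Gclc, whose difference was 0.0033, read -0.02 without mutant 1, -0.01 without mutant 4, -0.02 without control 1, -0.08 without control 2 and -0.03 without control 3. With 1 array left out, the ranges were -0.08 to 0.14 in Gclc, -0.14 to 0.30 in Gclm and -0.28 to 0.10 in Nqo1.

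Deviations of same-numbered arrays from their group means correlated at 0.47, 0.42, -0.09 and 0.37 for replicates 1 to 4. The numbers were not taken as a pairing, because the third pair was not above 0.1 and no label ties the numbers to a shared litter or day, although the bioB level followed them in both genotypes. Not every array correlated best with its own number (mutant 1 correlated at 0.51 with control 2). With a replicate block 0 of all genes and 0 antioxidant genes passed in limma (3828 genes at an unadjusted p under 0.05), and the Gpx8 and Gsta4 differences had adjusted p = 0.141 and 0.16.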

Other observations

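Beyond the genes named by rule, 4 pathway genes had large but variable differences and are given here as values chosen after they were seen. Ggct, which breaks down gamma-glutamyl peptides of glutathione, read 8.36, 8.25, 8.22 and 9.87 in mutants and 8.95, 9.07, 10.14 and 10.44 in controls (difference -0.98, SE 0.47, adjusted p = 0.357 in limma). Mutants 1 to 3 lay below every control and mutant 4 lay among them. The esterase gene Ces1g read 5.66, 5.65, 5.53 and 8.11 in mutants and 7.84, 6.58, 9.02 and 8.70 in controls (-1.80, SE 0.71, adjusted p = 0.283 in limma), with mutants 1 to 3 again the lowest arrays. Ces1g was dim, with mutants 1 to 3 and control 2 below the median probe set. Blvrb, a biliverdin reductase gene, read 13.65, 13.12, 13.55 and 11.54 in mutants and 12.49, 12.61, 11.41 and 11.13 in controls (1.05, SE 0.52, adjusted p = 0.371 in limma), and mutants 1 to 3 were its highest arrays. Gstt1, a theta class transferase, read 9.48 to 10.10 in mutants and 9.71, 9.11, 9.16 and 7.19 in controls (0.99, SE 0.49, adjusted p = 0.368 in limma), with control 4 the lowest array. In Ggct, Ces1g and Blvrb, the arrays set apart were those with the highest macrophage marker means (13.41 to 13.48 in mutants 1 to 3), and the part of this in the differences was not tested.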
